A study of Mus musculus with 12 samples.

Results

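The 2'-5' oligoadenylate synthetases studied here are the 4 mouse genes Oas1a, Oas1g, Oas2 and Oasl2, taken by gene name from both deposited tables, which together list 2600 genes. All 4 were listed in the comparison of siDUSP6 with NC, and 2 of them (Oas1g and Oas2) in the comparison of GFP-DUSP6 with GFP. Oas1a and Oasl2 are absent from the plasmid table, so their counts in those libraries are not analysed here. RNA was sequenced from AML12 cells, a hepatocyte line made from the liver of a mouse transgenic for TGF-alpha, and every group was grown in serum-containing medium with dexamethasone and ITS, and transfected. Cells labelled siDUSP6 received a Dusp6 siRNA and cells labelled NC a negative-control siRNA, and both were collected at 48 h. Cells labelled GFP-DUSP6 received a plasmid for GFP joined to DUSP6 and cells labelled GFP a GFP plasmid, and both were collected at 24 h. Each group held 3 libraries of 1 cell line, and the labels do not tie them to separate cultures. The p-values therefore cover library-to-library spread alone, and that spread may be technical.

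Oligoadenylate synthetases are enzymes that sense double-stranded RNA. When bound to it, the active members join ATP into short chains of adenylate with 2'-5' bonds, which act as a second messenger of the antiviral response. The genes are textbook targets of type I and type III interferon, whose receptors activate the transcription factor complex ISGF3, which binds the interferon-stimulated response element in promoters. Oas1a and Oas1g encode small synthetases with a single catalytic unit, Oas2 a synthetase with a tandem unit, and Oasl2 a synthetase followed by ubiquitin-like domains.

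The targeted gene was lower in both comparisons (authors' deposited tables, DESeq2 adjusted p = 3.74e-56 for siDUSP6 and 2.56e-12 for GFP-DUSP6). Dusp6, which encodes a phosphatase of the MAP kinase ERK, had 1742, 1833 and 1775 normalized counts in the siDUSP6 libraries, against 4059, 3945 and 3801 in NC. In the libraries labelled GFP-DUSP6 it had 2433, 2421 and 2208 normalized counts, against 3327, 3311 and 3417 with GFP. The count thus goes against the plasmid label. No source used here says whether transcripts of the plasmid enter this count, so it does not settle whether the label holds. Directions are given for the libraries labelled GFP-DUSP6. Summed counts over the listed genes, which are not library depths, ranged from 3500977 to 4078892 in the siRNA libraries and from 1303866 to 1531091 in the plasmid libraries. Of 8 hepatocyte markers, 6 were listed in the siRNA table. Alb, Ttr, Apoa1 and Hnf4a were called lower with siDUSP6, with log2 fold changes of -1.98 to -0.31, and the keratin genes Krt8 and Krt18 were called higher, by 0.35 and 0.24. Of 7 leukocyte markers Cd14 alone was listed, at 1277 ± 145 normalized counts in siDUSP6 libraries and 1785 ± 35.7 in NC, and at 2597 ± 141 in the libraries labelled GFP-DUSP6 and 1822 ± 45.1 with GFP (SD, n = 3 each). It was thus called lower in the first comparison and higher in the second, and the part of these markers in the results below was not tested. The levels of unlisted markers are not analysed here.

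All 4 genes lie on chromosome 5 (mm10, GENCODE M21). Oas2 (ENSMUSG00000032690, 120730333 to 120749853), Oas1g (ENSMUSG00000066861, 120876142 to 120887613) and Oas1a (ENSMUSG00000052776, 120896256 to 120907521) share 1 locus on the minus strand. Oasl2 (ENSMUSG00000029561, 114896936 to 114912234) lies on the plus strand beside Oasl1, in a second locus of the same chromosome. Oas1a and Oas1g are near copies over much of their length, and 57.6% of the distinct 50-base words of Oas1a transcripts also occur in Oas1g, which makes up 45.2% of the words of Oas1g. No source used here says how the authors' counting dealt with such reads, so the split of counts between Oas1a and Oas1g is uncertain. Oas2 shared 0 such words with other genes and Oasl2 0.138%. The kit named in the labels is not said to mark strand, and Gm43068 lies within Oas2 on the opposite strand, so reads of these genes cannot be told apart there.

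The promoters are shown because the members rose together with siDUSP6 and are known targets of ISGF3. RefSeq (GRCm38.p6) gave a promoter window for 3 of the 4 members, and Oas2 had no entry. Each line gives the 250 bases before the annotated start site, 5′ to 3′ on the gene's strand, with matches to the searched motif in capitals. The motif is a pair of GAAA separated by any 2 bases, the repeat at the core of the interferon-stimulated response element. The positions are chr5:120907526-120907775 (minus strand) for Oas1a, chr5:120887614-120887863 (minus strand) for Oas1g and chr5:114896684-114896933 (plus strand) for Oasl2.
Oas1a: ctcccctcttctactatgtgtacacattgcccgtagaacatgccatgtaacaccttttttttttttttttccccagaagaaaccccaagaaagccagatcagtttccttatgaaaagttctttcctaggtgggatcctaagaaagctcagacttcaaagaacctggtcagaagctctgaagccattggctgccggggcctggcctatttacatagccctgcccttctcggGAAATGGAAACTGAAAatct
Oas1g: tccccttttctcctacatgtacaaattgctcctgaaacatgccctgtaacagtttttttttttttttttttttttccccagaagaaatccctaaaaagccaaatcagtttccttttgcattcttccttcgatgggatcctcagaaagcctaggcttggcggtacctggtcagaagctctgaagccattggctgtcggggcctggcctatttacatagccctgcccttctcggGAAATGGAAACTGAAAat
Oasl2: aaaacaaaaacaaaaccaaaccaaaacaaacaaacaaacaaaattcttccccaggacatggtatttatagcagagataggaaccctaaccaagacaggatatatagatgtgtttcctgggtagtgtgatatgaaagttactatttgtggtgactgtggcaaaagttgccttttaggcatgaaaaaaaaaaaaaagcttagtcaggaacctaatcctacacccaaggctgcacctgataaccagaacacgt

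The capitals in Oas1a and Oas1g are 2 overlapping matches each, at 20 to 5 bases before the start site of Oas1a and 18 to 3 bases before that of Oas1g. Both strands of each 300-base window (250 bases before and 50 after the start) were searched, so on the other strand the motif reads as a pair of TTTC separated by any 2 bases, and overlapping matches were all counted. The Oas1a and Oas1g windows were identical at 261 of 306 aligned columns (85.3%). The Oasl2 window held 0 matches, which says only that these letters are not in this window. Among the other family genes with a window, Oas3 had 1 match and Oas1c had 2 overlapping ones, and the matches are shown in capitals within 30 bases at chr5:120777713-120777742 (minus strand) for Oas3 and chr5:120812607-120812636 (minus strand) for Oas1c.
Oas3: agggaggaGAAAACGAAAgtgaagggaggt
Oas1c: aatgggacTTTCAGTTTCCATTTCccggga

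The Oas1c matches lie on its other strand, just before the annotated start of Oas1b (chr5:120812635, plus strand). Oas1b had no window of its own, so this site cannot be assigned to Oas1c alone. Matches in Oas1f, Oas1h and Oasl1 numbered 0. In all, 4 of the 8 family genes with a window held the motif (50%), against 1079 of all 27025 genes with one (3.99%) and 1131 of all 32851 windows of the same length (3.44%). Among genes called higher with siDUSP6 it was in 80 of the 797 with a window (10.0%), and among genes called lower in 34 of 730 (4.66%). Among the genes called higher by at least 1 on the log2 scale it was in 46 of 138 (33.3%). A match is a description of the sequence and shows no binding.

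**Figure D1:**
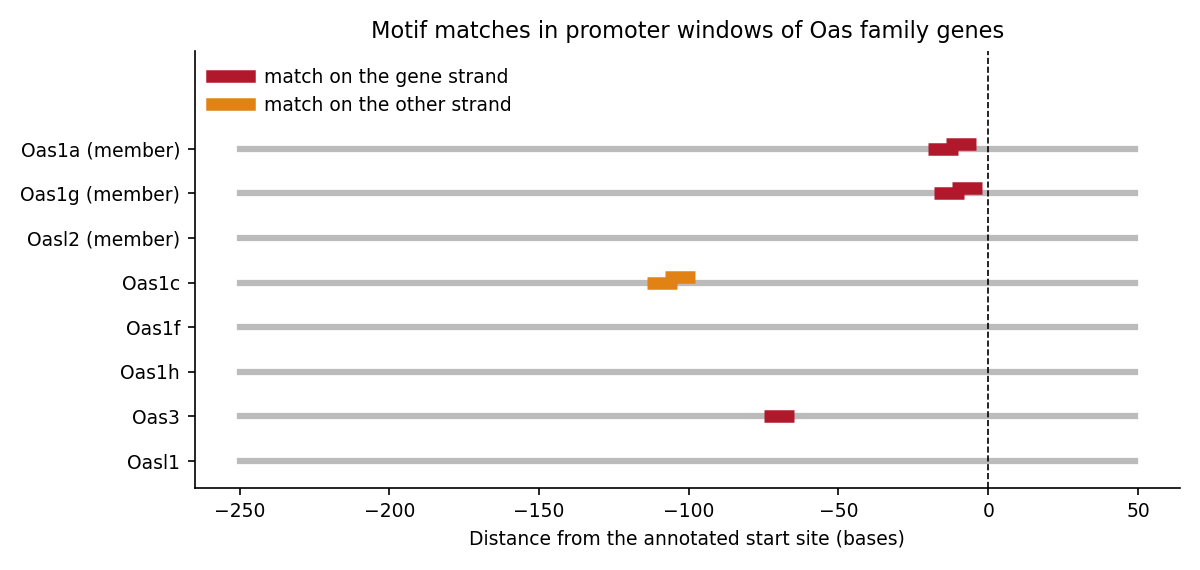
Positions of matches to a pair of GAAA separated by 2 bases in the promoter windows of 8 Oas family genes; the x axis is the distance from the annotated start site in bases, grey lines are the windows, and coloured blocks are matches by strand, raised where 2 overlap. Oas1a and Oas1g have overlapping matches just before the start site, and the Oasl2 window has 0.

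With siDUSP6, transcripts of all 4 genes rose, and Oas1g, Oas2 and Oasl2 had at most 6 reads in any NC library. In the authors' deposited table each had an adjusted p (DESeq2) under 0.05, so that 4 of 4 were called higher, where 7.76% of all tested genes were called higher and 15.0% were called in either direction. Of the 2150 listed genes 1959 were called, and the members were chosen with earlier results of these data known. The 4 calls are therefore no test against the share over all genes. All 4 also passed a minimum log2 change of 1, as did 1.49% of tested genes. The edgeR quasi-likelihood refit of the deposited counts called all 4 higher. It covered the listed genes alone and called 79.3% of them in either direction, so a call by it was common. Its higher calls made up 6.91% of tested genes. Log2 fold changes and their SE below come from that refit, and adjusted p-values from the authors' deposited tables unless edgeR is named. The median log2 fold change of the 4 was 7.57, against 0.42 over all genes called higher. By fold change Oas2 and Oasl2 ranked 3 and 4 among the 1959 called genes, Oas1g 11 and Oas1a 35. Bulk RNA cannot tell more cells with the transcript apart from more transcript per cell.

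Oas1a, an active synthetase, had 1216, 1162 and 875 counts in the siDUSP6 libraries, against 51, 35 and 60 in NC. The lowest siDUSP6 library thus stood more than 10 times above the highest NC library. The groups did not overlap, but genes were listed by a p under 0.05, which favours groups without overlap. After scaling this was 1064 ± 167 normalized counts in siDUSP6 libraries and 48.9 ± 11.1 in NC (SD, n = 3 each). On the log2 scale the fold change was 4.44 ± 0.17 (SE). The adjusted p in the authors' deposited table (DESeq2) was 7.39e-123, which placed Oas1a 4 among all called genes when ordered by p.

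Oas1g, its neighbour and near copy, had 185, 160 and 125 counts with siDUSP6, against 1, 1 and 1 in NC. Every NC library held a single read, so the size of the change rests on 3 reads. The ratio of summed counts was 157, with a 95% exact binomial interval of 53.3 to 762 that covers counting error only. It had a log2 fold change of 7.08 ± 0.38 (SE), and the adjusted p in the authors' deposited table (DESeq2) was 8.14e-15.

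Oas2, the synthetase with a tandem catalytic unit, had 1018, 790 and 641 counts in the siDUSP6 libraries, against 5, 0 and 3 in NC. Transcripts were thus at the limit of detection in NC and abundant in every siDUSP6 library. The log2 fold change was 8.15 ± 0.35 (SE, edgeR), and the DESeq2 adjusted p in the authors' deposited table was 4.67e-50. Leaving out single libraries gave 7.62 to 8.93, with the lowest value without NC replicate 2, which held 0 reads, and the highest without NC replicate 1, which held 5.

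Oasl2, the synthetase with ubiquitin-like domains, had 1204, 947 and 688 counts with siDUSP6, against 3, 6 and 1 in NC. The groups again lay far apart. The log2 fold change was 8.05 ± 0.34 (SE, edgeR), with a DESeq2 adjusted p of 1.75e-58 in the authors' deposited table. Leaving out single libraries gave 7.61 to 8.79, with the lowest value without NC replicate 3, which held 1 read, and the highest without NC replicate 2, which held 6.

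**Figure D2:**
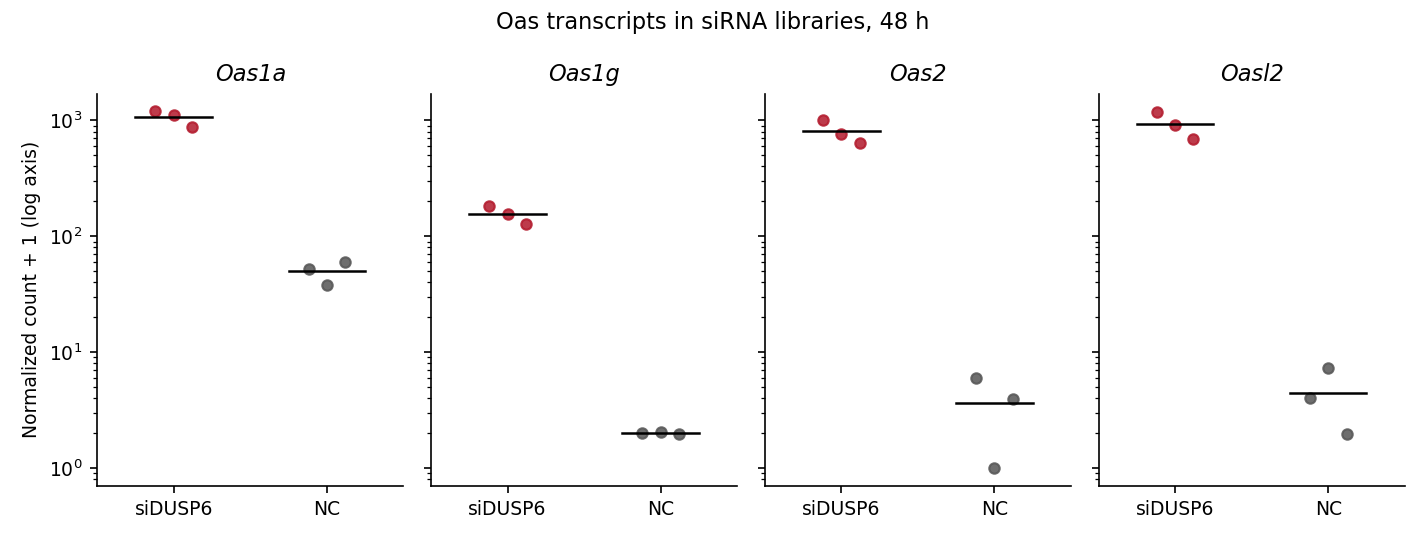
Normalized counts plus 1 on a log axis for Oas1a, Oas1g, Oas2 and Oasl2 in the 3 siDUSP6 and 3 NC libraries; points are libraries and bars are means. Each siDUSP6 library lies above every NC library for each gene, a separation that the listing of genes by a p under 0.05 favours. NC libraries of Oas1g, Oas2 and Oasl2 hold 0 to 6 reads.

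Scaled to exon length, the order of the members differed from the order of their changes. In the siDUSP6 libraries Oas1a was the most abundant of the 4, at 564 ± 88.4 normalized counts per kb of annotated exon (SD, n = 3). Oas2 followed at 180.0 ± 41.2 and Oasl2 at 145.7 ± 38.9 per kb, and these neighbours overlapped, although Oas2 was the higher in 3 of 3 libraries. Oas1g was the least abundant, at 65.7 ± 12.1 per kb. The levels of Oas1a and Oas1g depend on how reads common to both were counted, which is not known. In NC, Oas1a stood at 25.9 ± 5.89 per kb, and the levels of the other 3 overlapped, at 0.595 ± 0.566 for Oas2, 0.538 ± 0.422 for Oasl2 and 0.432 ± 0.016 for Oas1g (SD, n = 3). Every NC library held 1 read of Oas1g, so its small SD reflects the scaling alone and leaves out counting error. Oas1a thus had the highest NC level and the smallest log2 fold change of the 4. For each of Oas1g, Oas2 and Oasl2 the log2 ratio of Oas1a to it was lower in siDUSP6 libraries than in NC, by 1.82, 3.67 and 3.44 (pseudocount 1), and did not overlap between the groups, but the exact two-sided permutation test gave p = 0.1, the smallest that 3 against 3 libraries allow, and 6 pairs of members were compared. These ratios were taken from normalized counts without scaling to exon length. On that basis the ratio of Oas2 to Oasl2 was -0.20 ± 0.09 on the log2 scale in siDUSP6 libraries and -0.43 ± 2.12 in NC (SD, n = 3; exact permutation p = 1).

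Oas1g took 13.2%, 12.1% and 12.5% of the summed Oas1a and Oas1g counts in the siDUSP6 libraries, against 1.92%, 2.78% and 1.64% in NC. These shares depend on how reads common to both near copies were counted, which is not known. The summed counts behind the NC shares were 36 to 61, and the 95% exact binomial intervals reached up to 10.3%, 14.5% and 8.80% in NC replicates 1, 2 and 3. The lowest bound of the siDUSP6 libraries was 10.4%, so the intervals of NC replicates 1 and 3 lay below it and that of NC replicate 2 did not. Over libraries the shares were 12.6 ± 0.558% in siDUSP6 and 2.11 ± 0.593% in NC (SD, n = 3 each; exact two-sided permutation p = 0.1, the smallest possible).

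**Figure D3:**
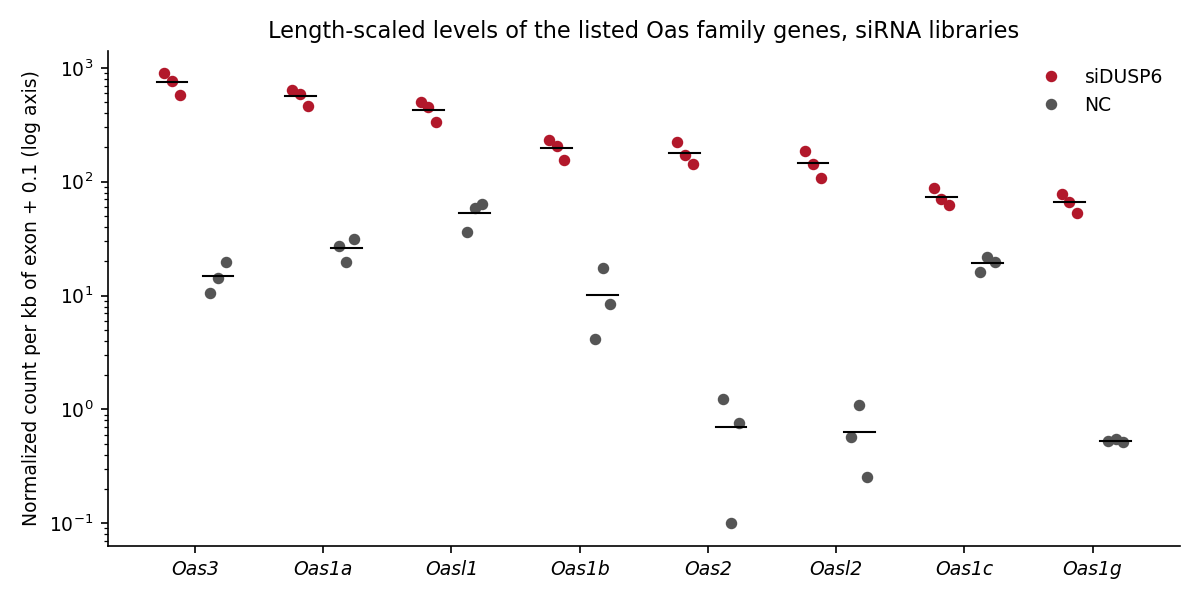
Normalized counts per kb of annotated exon plus 0.1 (log axis) for the 8 listed Oas family genes in siDUSP6 and NC libraries; points are libraries and bars are means, and genes run from the highest to the lowest siDUSP6 mean. Oas1a is the highest of the 4 members in both groups, Oas1g is the lowest in siDUSP6 libraries, and Oas1g, Oas2 and Oasl2 overlap in NC.

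The siDUSP6 libraries differed from each other in the same way for every member. Replicate 1 was the highest and replicate 3 the lowest for 4 of 4 members, and for 8 of the 8 listed family genes. The ratio of the highest to the lowest siDUSP6 library was 1.36 for Oas1a, 1.45 for Oas1g, 1.56 for Oas2 and 1.72 for Oasl2. Dusp6 itself varied by less between these libraries, as given above. Its lowest value was in replicate 1 and its highest in replicate 2, so its order was not the reverse of theirs, and a link was not tested. Among all 1017 genes called higher, replicate 3 was the lowest for 33.5% and replicate 1 the highest for 29.4%, so the shared order was not that of the called genes as a whole. Among the 195 of them that passed the minimum log2 change of 1 these shares were 70.3% and 67.2%.

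Other genes of the family were higher too. Of 8 further Oas genes, 4 were listed and all 4 were called higher, with a median log2 fold change of 3.67. Over all tested genes 7.76% were called higher. Oas1d, Oas1e, Oas1f and Oas1h were not listed. Oas3, the largest synthetase, had 6444, 5658 and 4059 counts with siDUSP6, against 73, 96 and 142 in NC, a log2 fold change of 5.66 ± 0.21 (SE). Per kb it was the most abundant family gene in siDUSP6 libraries, at 747 ± 162, although its range overlapped that of Oas1a. Oasl1, whose protein lacks synthetase activity, changed by 3.02 ± 0.20, Oas1b by 4.32 ± 0.32 and Oas1c, annotated as inactive in the deposited table, by 1.95 ± 0.20 (log2, SE). Their adjusted p-values in the authors' deposited table (DESeq2) were 1.34e-54, 3.10e-13 and 1.51e-13. Part of Oas1c overlaps the antisense gene Gm43069, and the start of Oasl1 overlaps the start of the antisense gene Gm13822. Reads from the overlapping stretches therefore cannot be assigned to either gene.

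In the libraries labelled GFP-DUSP6 both listed members had more reads than with GFP, and 1 of them passed the test. Oas2 had 39, 21 and 26 counts in the libraries labelled GFP-DUSP6, against 9, 8 and 3 with GFP. The groups did not overlap, which the listing of genes by a p under 0.05 favours. The lowest GFP-DUSP6 library held more than 2 times the reads of the highest GFP library. The log2 fold change was 2.00 ± 0.46 (SE), with an adjusted p of 0.0263 in the authors' deposited table (DESeq2). Oas2 was thus the 1 member called, where 3.39% of all tested genes were called higher and 4.61% were called in either direction. It also passed a minimum log2 change of 1, as did 0.278% of tested genes. Of the 707 listed genes 580 were called by the authors' adjusted p, so a call of a listed gene was common. The edgeR quasi-likelihood refit covered the listed genes alone and called 81% of them in either direction. Its higher calls made up 3.40% of tested genes. For Oas2 the adjusted p of the refit was 0.0127. It was 0.112 without GFP-DUSP6 replicate 1, 0.059 without GFP-DUSP6 replicate 3 and 0.0962 without GFP replicate 3, and 0.071 with TMM scaling over the listed genes (edgeR), where the log2 fold change was 1.71.

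Oas1g had 11, 7 and 13 counts in the libraries labelled GFP-DUSP6, against 0, 2 and 1 with GFP. The groups did not overlap, which the same listing favours, and both held few reads. The ratio of summed counts was 10.3, with a 95% exact binomial interval of 3.22 to 52.8 for counting error only. In the authors' deposited table (DESeq2) the p was 0.00655 with no adjusted p, so Oas1g was not called. The edgeR quasi-likelihood refit gave an adjusted p of 0.0318, and DESeq2 on the listed genes 0.157.

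Oas3 was the other family gene in the plasmid table, with 254, 252 and 258 counts in the libraries labelled GFP-DUSP6, against 120, 113 and 60 with GFP. Its log2 fold change was 1.29 ± 0.19 (SE, edgeR), with a DESeq2 adjusted p of 1.89e-06 in the authors' deposited table. GFP replicate 3 was the lowest GFP library for Oas2 and Oas3 but not for Oas1g.

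**Figure D4:**
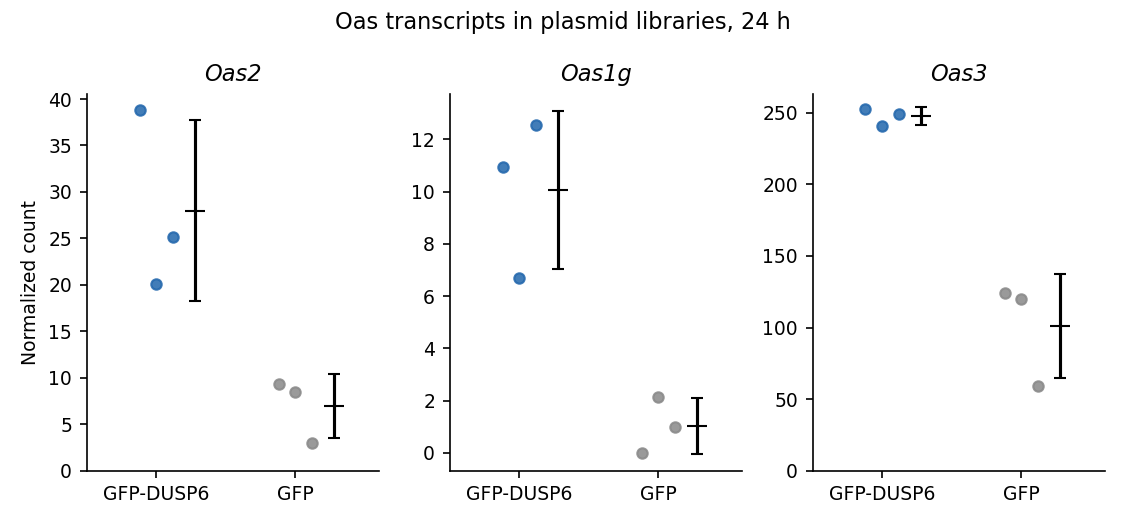
Normalized counts of Oas2, Oas1g and Oas3 in the 3 libraries labelled GFP-DUSP6 and the 3 GFP libraries; points are libraries, and the bars beside them are the mean and SD. The groups do not overlap for any of the 3 genes, which the listing of genes by a p under 0.05 favours. The y axes differ, with Oas1g at 0 to 12.6 and Oas3 at 59.4 to 253.

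The rise with siDUSP6 was larger than that in the libraries labelled GFP-DUSP6 for both members listed in both tables. The difference of the log2 fold changes was 6.15 ± 0.91 (SE) for Oas2 and 3.94 ± 1.42 for Oas1g, with an edgeR quasi-likelihood adjusted p of 2.82e-05 and 0.0178 over the 257 genes listed in both tables. Of those genes 86.0% passed the same test. Without GFP replicate 2, which held 2 of the 3 GFP reads of Oas1g, the difference for Oas1g was 3.07 (edgeR adjusted p = 0.211). No library is common to both comparisons. An siRNA at 48 h is set against a plasmid at 24 h, so agent, time and target cannot be told apart.

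**Figure D5:**
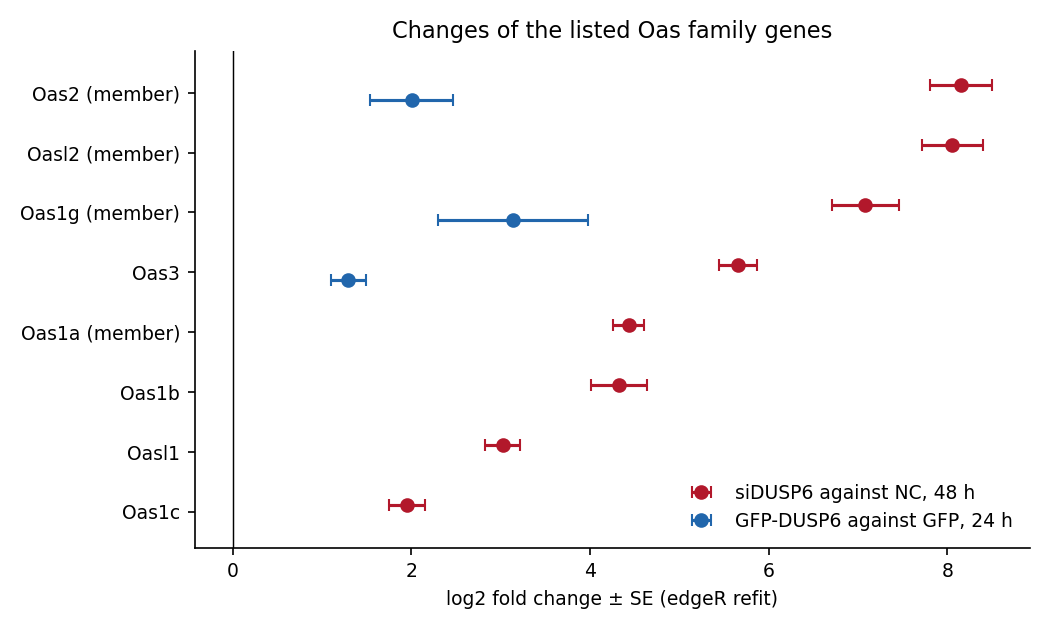
Log2 fold change ± SE (edgeR refit, x axis) of the 8 listed Oas family genes for siDUSP6 against NC and, where listed, for GFP-DUSP6 against GFP. All points lie above 0, from 1.95 for Oas1c to 8.15 for Oas2 with siDUSP6, and from 1.29 for Oas3 to 3.14 for Oas1g in the plasmid comparison.

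Pde12 and Akap7, which can degrade 2'-5' oligoadenylate, and Abce1, Dcp2 and Xrn1, which act in RNA decay or ribosome recycling, were listed in neither table. Their counts are not analysed here, and a missing row does not show that a gene was unchanged. A list of 8 genes held sensors of foreign or unusual nucleic acid and proteins that act with them. With siDUSP6 7 of the 8 were called higher and 0 lower, with a median log2 fold change of 2.23. Over all tested genes 7.76% were called higher and 15.0% in either direction. Ifih1, which encodes the sensor MDA5, changed by 3.96 ± 0.24, Rigi, which encodes the sensor RIG-I, by 3.37 ± 0.16, and Eif2ak2, the kinase PKR, by 2.23 ± 0.13 (log2, SE). The helicase gene Dhx58 changed by 2.14 ± 0.32, the endosomal receptor gene Tlr3 by 1.63 ± 0.15 and Adar, an RNA editing enzyme, by 1.36 ± 0.11. Zbp1, a sensor of Z-form nucleic acid, had 27.5 ± 6.88 normalized counts in siDUSP6 libraries and 0.685 ± 0.594 in NC (SD, n = 3 each), and Mavs, the adaptor of the sensors, was not listed. In the libraries labelled GFP-DUSP6 Rigi alone of these 8 was listed. It was called higher by 0.78 ± 0.11, where 3.39% of all tested genes were called higher.

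Of 13 genes of interferon signalling, 6 were called higher with siDUSP6 and 0 lower. Over all tested genes 7.76% were called higher and 15.0% in either direction. The median log2 fold change of the 6 was 3.29. Among them Irf9 changed by 3.12 ± 0.14 and Stat2, which encodes its partner in ISGF3, by 2.01 ± 0.12 (log2, SE). Irf7, a transcription factor of interferon genes, changed by 7.14 ± 0.24 and Usp18, which dampens receptor signalling, by 6.46 ± 0.26. The interferon gene Ifnb1, the receptor genes Ifnar1 and Ifnar2, and the kinase genes Jak1 and Tyk2 were not listed. In the libraries labelled GFP-DUSP6, 3 of the 13 were called higher and 0 lower, where 3.39% of all tested genes were called higher. Among the 3 were Irf1, by 0.78 ± 0.12, and Usp18, by 1.55 ± 0.33.

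The listed genes with the pattern most like each member included Irf7, Usp18 and Rsad2. Likeness was the Euclidean distance between log2(normalized count + 1), each less its mean in NC, over the 6 siRNA libraries and 2146 other listed genes. Where NC holds few reads, as for Oas1g, Oas2, Oasl2 and Ifi205, the added 1 and single NC reads weigh on the distance. Nearest to Oas1a was Ifi203 (distance 0.446), an interferon-induced gene of the PYHIN family, with 2349 ± 576 normalized counts in siDUSP6 libraries and 107.9 ± 12.5 in NC (SD, n = 3 each), followed by Ifi205 and Gbp4. Nearest to Oas1g were Xaf1 (0.413), Usp18 and Rsad2, the last an antiviral enzyme also known as viperin. Nearest to Oas2 were Apol9a (1.39), Irf7 and Ifi44, and nearest to Oasl2 were Ifi44 (1.29), Irf7 and Apol9b. The distance between Oas2 and Oasl2 was 3.03, against 3.18 between Oas2 and Ifi44 and 2.54 between Oasl2 and Apol9b. In the plasmid libraries, over 705 other genes, Oas2 was nearest to Mx2 (0.861), Usp18 and Ms4a4a, and Oas1g to Platr20 (0.835), Nim1k and Ccl20. Oas1g, Platr20, Nim1k and Ms4a4a had few reads with GFP, so the added 1 and single reads weigh on these distances too.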

How the data were processed

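RNA-seq of 12 libraries was deposited by the authors as 1 table of whole-number counts per gene for each comparison. Per the submitters' processing notes DESeq2 was used and the build is mm10; aligner, counter and annotation are named nowhere in the sources used here. The log2 fold change, p-value and adjusted p are columns of both tables, per the file headers, and the siRNA table adds the mean scaled signal and the linear fold. Listed genes have an adjusted p under 0.05, or none and a p under 0.05: 2150 (siRNA) and 707 (plasmid). The adjusted p-values imply 13102 and 12592 tested genes.

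Because the rows were selected, a gene was called from the authors' deposited adjusted p. Library size factors were recovered from the deposited mean signal (siRNA) or the fold changes of 489 genes (plasmid) and used to normalize counts. An edgeR 4.0.16 quasi-likelihood refit (R 4.3.3) of every listed gene gave log2 fold changes and SE, with Benjamini-Hochberg adjustment over 13102 or 12592 genes; it was tested on simulated data. Differences between comparisons were fitted over 257 genes in both tables. DESeq2 1.42.0, TMM and omitted libraries were alternatives. Replicates differed beyond sampling noise (chi-square over its degrees of freedom was 3.89 to 25.7). Exon lengths and 50-base words are from GENCODE M21, which matched the deposited IDs of 8 listed Oas genes. Intervals cover counting error only.

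Named genes were the members, Dusp6, the listed genes of pathway and marker lists, and the 3 nearest genes of each member. The members and lists were chosen with earlier results of these data known. Endothelial and stellate markers were not listed. Some listed or searched genes of these lists are not reported here.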

Additional observations from a re-analysis of the deposited data

Results flagged for a closer look

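The change of Oas2 differed between the comparisons by a test of the difference itself. It was larger by 6.15 ± 0.91 (log2, SE) for siDUSP6 against NC than for GFP-DUSP6 against GFP, with Oas2 higher in 3 of 3 libraries of each treated group than in any library of its control (edgeR quasi-likelihood adjusted p = 2.82e-05). For Oas1g the same difference was 3.94 ± 1.42 (log2, SE; edgeR quasi-likelihood adjusted p = 0.0178), also with 3 of 3 libraries of each treated group above the controls. Without GFP replicate 2 it was 3.07 (edgeR adjusted p = 0.211). This test was passed by 86.0% of the 257 genes listed for both comparisons. Genes were listed by a p under 0.05, which favours treated libraries that all lie on 1 side of their controls. Groups of 3 libraries are too small for a search for single outlying libraries.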

How the results depend on the processing

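With siDUSP6 the 4 members, and with Oas1b, Oas1c, Oas3 and Oasl1 all 8 listed Oas genes, stayed called higher under the edgeR refit, TMM over the listed genes, the replicate block and without each library, and the members also under median of ratios, DESeq2, the count filter and a minimum log2 change of 1. The planned fit with no count filter is the refit itself. With GFP-DUSP6 the 1 call depended on the processing. The refit called 2 members, as did the replicate block and the deposited p without adjustment (added after the data were seen). TMM and median of ratios called 0, and TMM shifted the listed genes by a median of -0.30 (log2). Both scalings used the listed genes alone, of which 427 were called higher and 153 lower. Centring such a set lowers the rises, so these 2 settings are no independent check of the call. Of the 3 listed Oas genes the authors' adjusted p called 2 and the refit 3, and TMM called 1. Without single libraries the refit called 0 to 2 members and 1 to 3 of these genes. The log2 fold change of Oas2 did not pass with TMM (1.71) or median of ratios (1.68) and was 1.63 to 2.28 without single libraries. That of Oas1g, 3.14 in the refit, did not pass with TMM (2.86), median of ratios (2.83) or DESeq2 (3.28) and was 2.61 to 4.02 without single libraries, and the filter with a minimum count of 10 (added after the data were seen) removed Oas1g. The difference of the changes was 5.61 to 6.93 for Oas2 and 3.07 to 4.47 for Oas1g without single libraries. Same-numbered libraries did not all deviate together (correlations of 0.374, 0.094 and 0.18 in the siRNA and 0.348, 0.366 and 0.012 in the plasmid comparison), so numbers were not taken as pairs. Between different-numbered libraries the correlations were -0.281 to 0.154 and -0.378 to 0.016, so a partial pairing remains possible. With the replicate block the refit called 4 members with siDUSP6 and 2 with GFP-DUSP6, and the difference for Oas2 was 6.15 and for Oas1g 3.94. The causes were not tested. Few reads in NC and GFP limit the folds of Oas1g, Oas2 and Oasl2.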

Other observations

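Genes beside the Oas loci were mostly not listed. Within 250 kb of the locus from Oas2 to Oas1d (191 kb), 12 other protein-coding genes are annotated, of which Slc8b1, Tpcn1 and Ddx54 were called higher with siDUSP6 and 0 lower. Their log2 fold changes were 0.49 ± 0.11, 0.34 ± 0.11 and 0.35 ± 0.09 (SE), against 4.44 for Oas1a in the same locus. Within 250 kb of Oasl2 and Oasl1, Git2 (0.30 ± 0.08) and Unc119b (0.34 ± 0.10) were called higher among 16 genes. In the libraries labelled GFP-DUSP6, 0 of the 12 and 0 of the 16 were called. Over all tested genes 7.76% were called higher with siDUSP6, and 4.61% were called in either direction with GFP-DUSP6, so these few neighbours are not shown to differ from other genes.

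The siDUSP6 libraries held 12086, 10539 and 7722 counts over the 8 listed Oas family genes, against 273, 365 and 443 in NC. The 4 members took 29.0% to 30.2% of them in siDUSP6 libraries and 11.5% to 22.0% in NC.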
